A study of Mus musculus with 6 samples.

Results

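The genes described here bear the family names of niche signals and lineage factors of the intestinal epithelium, and not all of them act as such. They are listed in a table of genes changed by loss of Smarcad1, a chromatin remodelling ATPase. The rule used gene symbols and no values, but the families and the roles given to the genes were chosen with earlier results of these data known. Every gene was taken whose symbol starts with that of 1 of 25 families of the Wnt, Notch, Eph, BMP and TGF-beta, EGF and FGF pathways or of the Sox, Klf, Gata, Hnf, Fox, Hox, Cdx and Tcf factors. This gave 23 of the 1420 listed genes. Poly(A)+ RNA was sequenced from small intestinal organoids, epithelial structures grown in Matrigel from isolated crypts, with 3 libraries from Smarcad1 wild-type (WT) mice and 3 from knockout (KO) mice, all C57BL/6. The genotype label of the KO samples names the Vil-Cre driver of the intestinal epithelium, whereas the growth protocol and the study's methods name ZP3-Cre, which deletes in the oocyte and so in all cells, with litter mates as controls. The age of the mice is not given in the sources used here, and the libraries are described as biological triplicates without saying whether each came from its own animal, so p-values measure the spread between these libraries, which may be smaller than that between animals. Per the study's methods, organoids were passaged by breaking them up and reseeding them, and were collected 5 days later, about 600 per condition. Their medium held 50 ng/ml EGF, 100 ng/ml Noggin (a BMP inhibitor) and 10% R-spondin-1-conditioned medium. Signals of 3 of these pathways were thus supplied from outside in WT and KO alike.

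Values are RPM, the reads of a gene scaled to the depth of its library. Depth ranged from 1.24e+07 to 1.57e+07 reads. Smarcad1 itself was measured at 98.8 ± 5.80 RPM in WT and 22.3 ± 1.49 RPM in KO (SD, n = 3 each), in the direction of the labels. The table holds only genes that the authors' own test called on these 6 libraries. All 23 genes also had a limma adjusted p-value under 0.05 here, but so did 99.9% of the whole table, and nothing about them is read from that count. Organoids are bulk samples, in which fewer cells of a type and less RNA per cell cannot be told apart.

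In the crypt, Wnt signals from Paneth cells and stroma keep stem cells dividing, and Notch ligands on neighbouring secretory cells hold stem cells back from the secretory fate. BMP signals oppose this from the villus side, EGF family receptors drive growth, and Eph receptors with their membrane-bound ephrin ligands keep crypt and villus cells in separate compartments. Sox, Fox, Gata, Hnf, Cdx and Hox factors then fix which cell type is made and in which stretch of the gut.

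Of the 23 genes, 16 were higher and 7 lower in KO, that is 69.6% higher. Of all listed genes, limma called 52.5% higher and 47.4% lower. The median log2 change of the 23 was 0.57, against 0.38 over all listed genes, and its median size without regard to sign was 0.70, against 0.64 over all listed genes. The changes ran from -0.92 for Fzd4 to 2.04 for Fgf15, and over the table from -5.07 to 7.13. By role, 2 of 4 ligands, 4 of 5 receptors and 7 of 8 transcription factors were higher. The other 6 share a family name but act otherwise (a kinase, an extracellular matrix protein, a non-coding RNA and others), and 3 of them were higher. Of the 25 families, 10 had no listed gene (Wnt, Lgr, Axin, Notch, Dll, Hes, Smad, Klf, Cdx and Egfr), and these were not analysed here. In 22 of the 23 the KO and WT values did not overlap, as in 98.5% of the table. The 8 genes with a mean under 18.5 RPM, 4 of them the Hoxb genes, were all higher in KO, and of the 15 above it 8 were higher and 7 lower. The whole table was alike in this, with a median level of 35.3 RPM for genes that rose and 117 RPM for genes that fell.

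**Figure D1:**
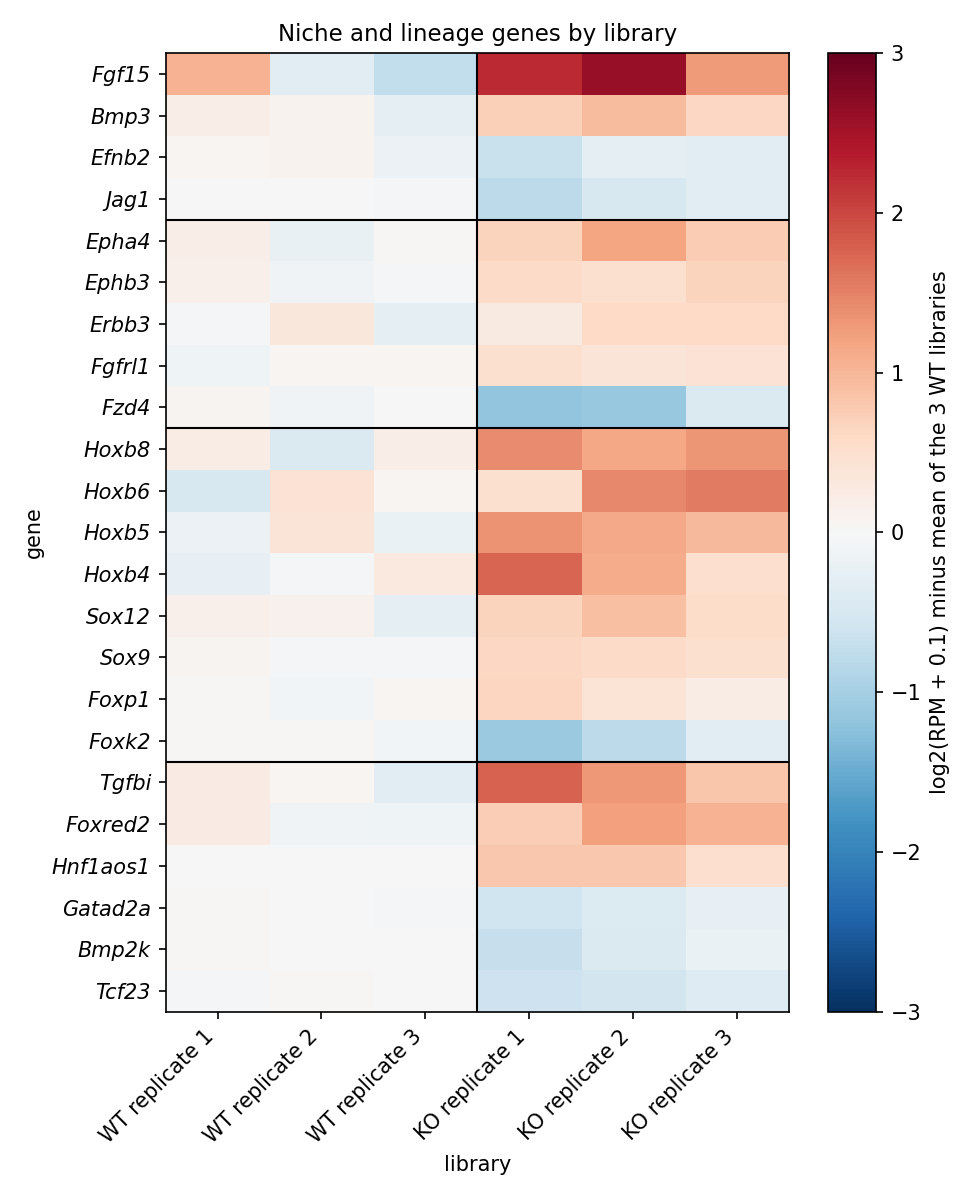
Heat map of the 23 genes (vertical axis, grouped by role and separated by lines from ligands at the top to genes that only share a name at the bottom) in the 6 libraries (horizontal axis). Colour gives log2(RPM + 0.1) minus the mean of the 3 WT libraries: 16 genes are red and 7 blue in KO, and in all 7 that fell KO replicate 1 lies farthest from WT.

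The ligands went both ways. Jag1, a membrane-bound Notch ligand, was measured at 45.6, 46.3 and 44.8 RPM in WT replicates 1 to 3 and at 26.4, 32.9 and 35.9 RPM in KO replicates 1 to 3. The WT libraries were within 2 RPM of each other, all KO libraries lay below them and KO replicate 3 came closest. The log2 change was -0.53 (standard error 0.13, limma adjusted p = 0.0104). Efnb2, an ephrin that signals through EphB receptors, was at 207, 213 and 177 RPM in WT and at 125, 164 and 156 RPM in KO, so the groups came close but did not overlap. It fell by 0.43 on the log2 scale (standard error 0.14, limma adjusted p = 0.0231). This call was lost without WT replicate 1 or without WT replicate 2, with limma adjusted p-values of 0.0703 and 0.0726. With a trend of transcript length removed from each library the log2 change was -0.20 and did not pass (limma adjusted p = 0.136).

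Bmp3, a BMP family member known to antagonise other BMPs, rose. It was at 107, 101 and 76.04 RPM in WT and at 153, 180 and 144 RPM in KO, with every KO library above every WT library (log2 change 0.76, standard error 0.16, limma adjusted p = 0.00661). The nearest listed gene upstream of it on chromosome 5, at a gap of 1763 kb, is Bmp2k, which fell. Fgf15, the hormone by which the ileum signals to the liver to slow bile acid synthesis, had the largest change of the 23. It had 4.27, 1.60 and 1.17 RPM in WT, or 55, 25 and 18 reads, and 9.82, 12.8 and 5.04 RPM in KO, or 122, 187 and 72 reads. The mean was 3.93 times the WT mean, although WT replicate 1 and KO replicate 3 differed little. Its log2 change of 2.04 had a wide 95% interval, from 0.78 to 3.31 (limma adjusted p = 0.0110). Among leave-one-out fits the log2 change of Fgf15 ran from 1.68 (without WT replicate 3) to 2.57 (without WT replicate 1). Antisense genes Gm26793 and Gm39119 overlap its exons, and whether reads were counted by strand is not stated.

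Receptors were higher with 1 exception. Fzd4, a Frizzled receptor for Wnt proteins, was the only receptor that fell, and fell the most of all 23. It was measured at 34.2, 29.8 and 32.6 RPM in WT and at 14.1, 14.6 and 23.7 RPM in KO. The KO mean was 54.2% of the WT mean. KO replicates 1 and 2 were alike and KO replicate 3 lay between them and WT. The log2 change was -0.92 (standard error 0.21, limma adjusted p = 0.00795).

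Ephb3, an EphB receptor of crypt base cells that places Paneth cells at the crypt bottom, rose from 92.1, 76.96 and 80.3 RPM in WT to 123, 116 and 131 RPM in KO. The lowest KO library was well above the highest WT library, and the log2 change was 0.57 (standard error 0.11, limma adjusted p = 0.00537). Epha4, a related receptor of lower level, was at 6.68, 4.98 and 6.00 RPM in WT and at 9.34, 13.3 and 10.02 RPM in KO. That is a log2 change of 0.87 (standard error 0.18, limma adjusted p = 0.00559), with no overlap.

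Erbb3, a kinase-impaired receptor that binds neuregulins and pairs with other EGF family receptors, had the highest level of the 23. It is the 1 gene whose groups overlap, with 532, 690 and 442 RPM in WT and 654, 826 and 826 RPM in KO. KO replicate 1 lay below WT replicate 2. The log2 change of 0.49 had a 95% interval from 0.03 to 0.94 (limma adjusted p = 0.0407), and the call was lost in 4 of 6 leave-one-out fits and when libraries were centred on their median gene (limma adjusted p = 0.0661). Fgfrl1, an FGF receptor relative without a kinase domain, was at 43.1, 48.8 and 49.3 RPM in WT and at 65.9, 61.4 and 63.5 RPM in KO. Its libraries were tight in both groups, with a log2 change of 0.44 (standard error 0.10, limma adjusted p = 0.00825).

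**Figure D2:**
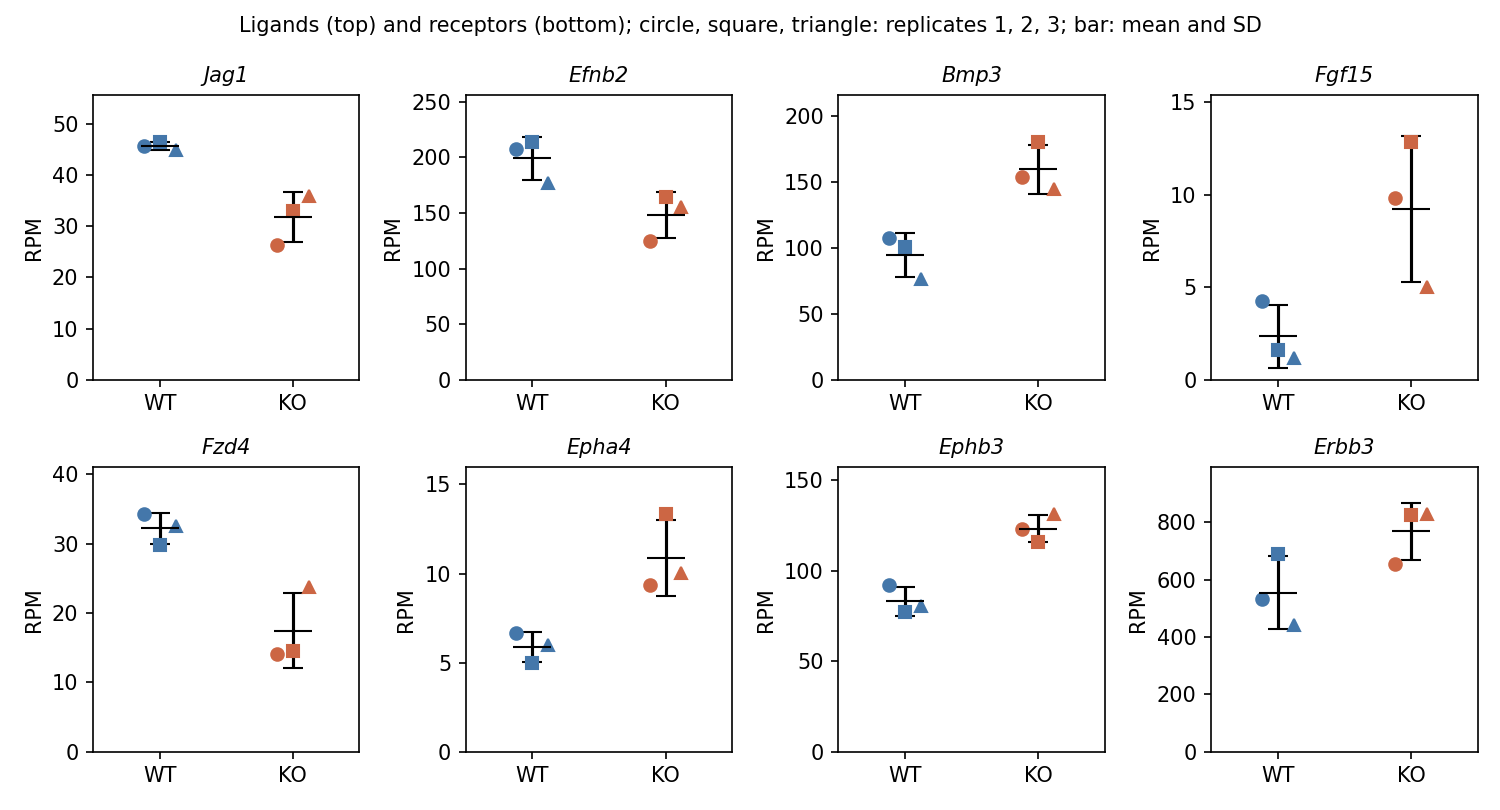
RPM (vertical axes, from 0) of 4 ligands in the top panels and 4 receptors in the bottom panels, for WT and KO. Circles, squares and triangles are replicates 1, 2 and 3, and bars are the mean and SD of 3 libraries: Jag1, Efnb2 and Fzd4 are lower in KO, and only in Erbb3 do the groups overlap.

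Of the transcription factor genes 4 lie close together in the genome. Hoxb8, Hoxb6, Hoxb5 and Hoxb4 lie in this order on the plus strand of chromosome 11 (GRCm38), from 96281905 at the start of Hoxb8 to 96321638 at the end of Hoxb4, with gaps of 7.16, 1.77 and 12.1 kb and no other listed gene between them. Any gene in these gaps that is not listed was not analysed here. Hox genes encode homeodomain proteins that mark position along the body axis, and neighbours in a cluster are often active together. All 4 rose, by similar amounts. The promoters from RefSeq (GRCm38.p6, 250 bases before to 50 after the start) are shown for the genes at the ends of this run, since the 4 moved together, and for the Notch ligand and the Wnt receptor that fell. Capitals mark matches to the motifs searched, and 3 of the 4 hold none.
Hoxb8 promoter, chr11:96281655-96281954, plus strand: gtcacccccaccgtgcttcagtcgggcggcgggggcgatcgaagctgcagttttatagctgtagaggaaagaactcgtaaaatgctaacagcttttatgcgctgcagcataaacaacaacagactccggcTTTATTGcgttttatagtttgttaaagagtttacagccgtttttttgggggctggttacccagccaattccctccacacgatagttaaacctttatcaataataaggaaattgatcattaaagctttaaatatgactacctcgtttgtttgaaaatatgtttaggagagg
Hoxb4 promoter, chr11:96318017-96318316, plus strand: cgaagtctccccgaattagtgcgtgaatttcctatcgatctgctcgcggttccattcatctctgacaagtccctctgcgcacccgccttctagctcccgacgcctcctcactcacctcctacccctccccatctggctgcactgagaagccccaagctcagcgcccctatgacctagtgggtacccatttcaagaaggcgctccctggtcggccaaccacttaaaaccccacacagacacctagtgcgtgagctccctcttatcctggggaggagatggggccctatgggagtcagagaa
Jag1 promoter, chr2:137116471-137116770, minus strand: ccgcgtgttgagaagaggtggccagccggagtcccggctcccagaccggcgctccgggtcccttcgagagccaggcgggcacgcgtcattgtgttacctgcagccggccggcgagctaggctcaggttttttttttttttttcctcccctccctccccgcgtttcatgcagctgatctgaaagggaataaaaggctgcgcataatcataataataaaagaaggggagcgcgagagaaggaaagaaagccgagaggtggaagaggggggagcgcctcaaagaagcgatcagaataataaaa
Fzd4 promoter, chr7:89404116-89404415, plus strand: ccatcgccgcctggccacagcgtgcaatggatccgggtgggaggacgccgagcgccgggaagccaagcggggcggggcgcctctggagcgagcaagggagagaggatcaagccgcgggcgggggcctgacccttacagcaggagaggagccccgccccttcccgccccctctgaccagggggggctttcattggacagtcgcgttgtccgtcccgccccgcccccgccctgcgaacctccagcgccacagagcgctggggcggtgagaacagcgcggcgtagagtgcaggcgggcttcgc
The motifs searched on both strands were those of TCF/LEF, the Wnt effectors (CTTTGAA or CTTTGAT or CTTTGTA or CTTTGTT), of RBPJ, the Notch effector (TGGGAA), and of CDX, gut homeodomain factors (TTTATGG or TTTATTG). Entries were found for 16 of the 23 genes. The CDX letters occurred in 1 of the 16, at base 131 of the Hoxb8 promoter, and in 7.20% of all 32851 promoters. TCF/LEF letters occurred in 1 of 16 (Foxp1) against 16.9% of all, and RBPJ letters in 3 of 16 (Epha4, Tcf23 and Fgfrl1) against 25.6%. For Foxp1 and Fgfrl1 the RefSeq start lies 1728 and 1847 bases from that of the table, so another start was searched. The Hoxb8 promoter has a GC content of 42.3% and that of Hoxb4 58.0%, around a median of 52.7% over all promoters, so the ends of the run differ in base composition. Sox9, Bmp3, Fgf15, Erbb3, Hoxb5, Hoxb6 and Hnf1aos1 have no entry.

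Hoxb8 was at 5.36, 3.38 and 5.29 RPM in WT and at 12.4, 10.4 and 11.6 RPM in KO, the clearest separation of the 4 (log2 change 1.30, standard error 0.20, limma adjusted p = 0.00249). Hoxb6 was at 2.10, 4.02 and 3.07 RPM in WT and at 4.19, 8.17 and 8.90 RPM in KO, where KO replicate 1 was hardly above WT replicate 2. Its log2 change of 1.16 (limma adjusted p = 0.0166) no longer passed without KO replicate 2, at a limma adjusted p of 0.0543. Hoxb5 was at 1.87, 2.81 and 1.83 RPM in WT and at 5.55, 4.80 and 4.27 RPM in KO, with no overlap (log2 change 1.15, standard error 0.19, limma adjusted p = 0.00324). Hoxb4 was at 2.41, 2.75 and 3.52 RPM in WT and at 9.90, 6.31 and 4.06 RPM in KO, so KO replicate 3 was close to WT (log2 change 1.12, standard error 0.32, limma adjusted p = 0.0149).

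The KO library with the highest value was thus replicate 1 for Hoxb8, Hoxb5 and Hoxb4 and replicate 3 for Hoxb6. Summed over the 4 genes the libraries had 11.7, 13.0 and 13.7 RPM in WT and 32.04, 29.6 and 28.8 RPM in KO. These values rest on 24 to 81 reads per gene and library in WT and 52 to 165 in KO. The antisense gene Hoxb5os overlaps the exons of Hoxb5. Per kb of merged exon all 4 stayed low, between 0.78 and 1.78 RPM per kb in WT and between 1.75 and 4.34 RPM per kb in KO, against 26.1 and 38.4 RPM per kb for Sox9.

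**Figure D3:**
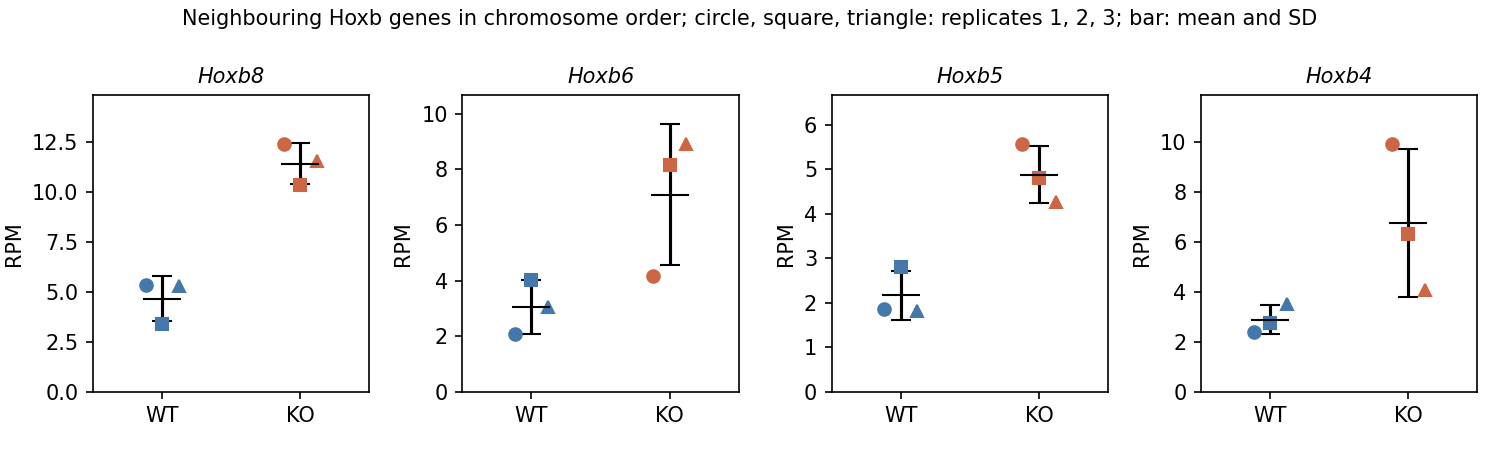
RPM (vertical axes, from 0) of Hoxb8, Hoxb6, Hoxb5 and Hoxb4 in WT and KO, with circles, squares and triangles for replicates 1, 2 and 3 and bars for the mean and SD of 3 libraries. The KO points lie above the WT points in every panel, and the smallest gaps are those of KO replicate 1 for Hoxb6 and KO replicate 3 for Hoxb4.

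Sox9, a factor of crypt stem and progenitor cells that Paneth cells need to form, ranged from 103 to 115 RPM in WT and from 149 to 165 RPM in KO. The means were 108 ± 6.22 and 159 ± 8.36 RPM (SD, n = 3 each). The log2 change was 0.56 (standard error 0.10, limma adjusted p = 0.00405). Sox12, of the SoxC group of progenitor factors, rose from 16.4 ± 2.60 to 26.6 ± 3.39 RPM (log2 change 0.70). Among the forkhead factors the 2 listed genes moved apart. Foxp1, a repressor, had a log2 change of 0.43 and ran from 148 to 198 RPM over the KO libraries, and its call was lost without KO replicate 2 or WT replicate 2 (limma adjusted p = 0.0514 and 0.0551) and with libraries centred on their median gene (limma adjusted p = 0.0566). Predicted genes Gm20696 and Gm49348 share exon sequence and strand with Foxp1, so its count is uncertain. Foxk2, a factor linked to metabolism and autophagy genes, was at 150, 151 and 139 RPM in WT and at 67.5, 85.3 and 119 RPM in KO. It fell in each KO library, least in KO replicate 3 (log2 change -0.74, standard error 0.21, limma adjusted p = 0.0140).

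Some cell type markers were listed too, and they went both ways. All listed genes had been called by the authors' test, and limma called 52.5% of them higher and 47.4% lower. Of 8 Paneth cell markers 7 were listed and all 7 were higher, with a summed level of 9017 to 10513 RPM in WT and 19262 to 27970 RPM in KO. Of 12 stem cell markers only Rnf43 was listed, and it rose from between 111 and 131 RPM to between 155 and 199 RPM. Of 10 enterocyte markers 5 were listed and 5 were lower, from a sum of 10033 to 11571 RPM in WT to 6188 to 6628 RPM in KO. Both listed goblet markers and both listed enteroendocrine markers were higher, and the listed tuft marker Dclk1 was lower. Of 5 general epithelial markers Krt18, a keratin, was listed and was higher. None of the 6 fibroblast and 3 endothelial markers looked for was listed, and of 5 immune markers Lyz2 was listed, at 1.31 to 2.41 RPM in WT and 3.71 to 6.04 RPM in KO. The part of cell type shares in the values of Sox9, Ephb3 and the others was not tested.

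The remaining 6 genes act outside the role their family name stands for. Tgfbi, an extracellular matrix protein induced by TGF-beta, was at 23.5, 20.6 and 15.9 RPM in WT and at 68.1, 49.1 and 35.2 RPM in KO. All KO libraries were above all WT libraries, but they spread widely (log2 change 1.31, standard error 0.26, limma adjusted p = 0.00546). Bmp2k, a kinase induced by BMP-2 that acts in endocytosis, was at 156, 151 and 151 RPM in WT and at 93.95, 112 and 132 RPM in KO, a log2 change of -0.45 (limma adjusted p = 0.0191) that no longer passed without KO replicate 2 or WT replicate 1, at limma adjusted p-values of 0.0546 and 0.0572. Its exons overlap those of Paqr3 on the other strand. Foxred2, an endoplasmic reticulum protein that helps degrade misfolded proteins, was at 4.51, 3.51 and 3.46 RPM in WT and at 6.36, 8.99 and 7.92 RPM in KO (log2 change 1.00, limma adjusted p = 0.00339). Foxred2 thus stood apart from WT in every KO library.

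Tcf23, a basic helix-loop-helix protein unrelated to the Wnt effectors of similar name, fell from 117 ± 3.43 to 81.3 ± 7.04 RPM (log2 change -0.52). Gatad2a, a subunit of the NuRD nucleosome remodelling and deacetylase complex, fell from 265 ± 8.12 to 198 ± 23.3 RPM (log2 change -0.42). Hnf1aos1, a long non-coding RNA, rose from 12.6 ± 0.183 to 20.7 ± 2.41 RPM (log2 change 0.70, SD, n = 3 each). Its exons overlap those of Hnf1aos2 on the same strand, so its reads are uncertain.

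The single-gene exact permutation test cannot give a p-value under 0.1 with 3 against 3 libraries. It gave that value for each of the 22 genes without overlap and 0.2 for Erbb3.

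**Figure D4:**
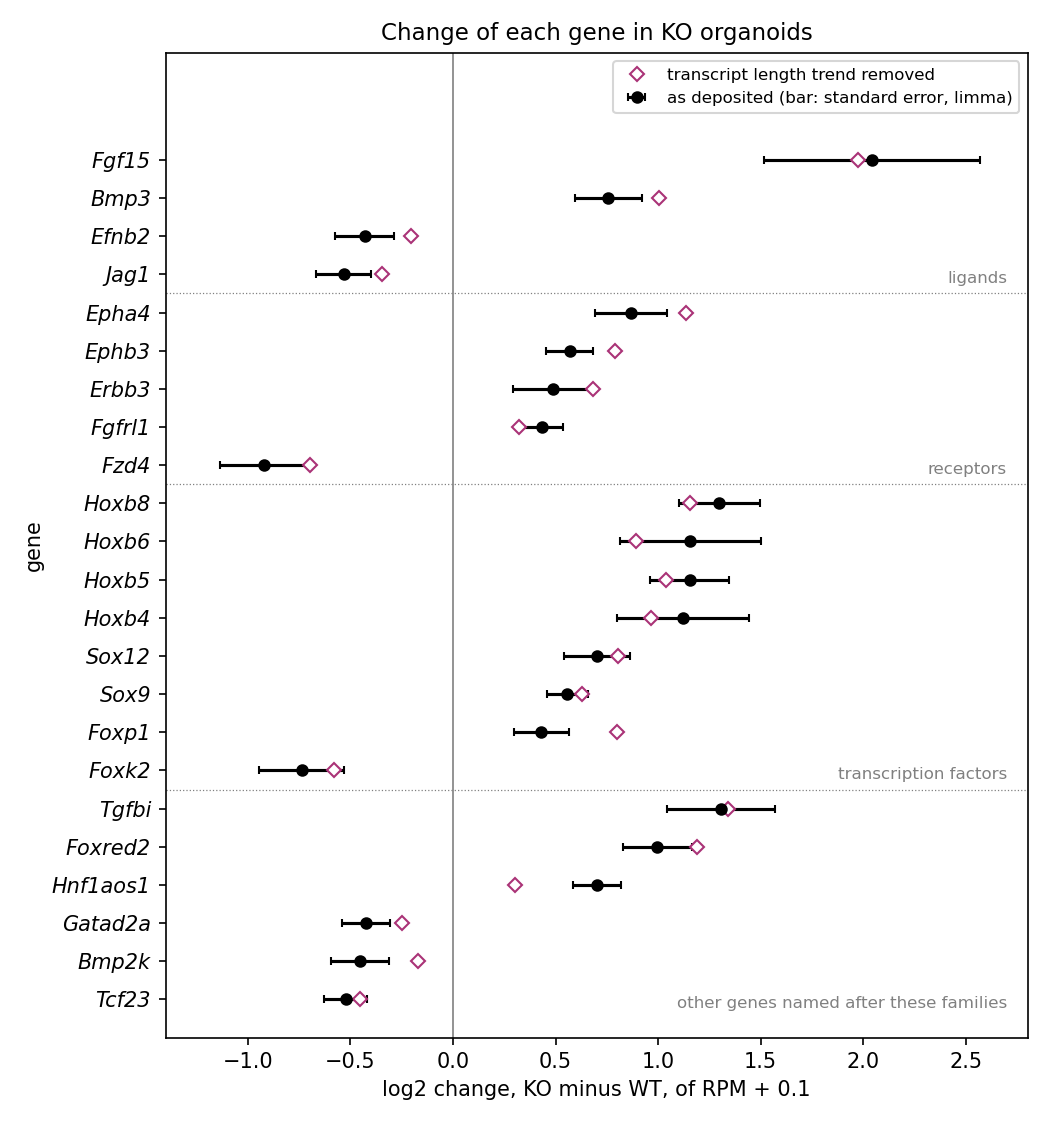
Log2 change of RPM + 0.1, KO minus WT (horizontal axis), of the 23 genes (vertical axis) in 4 role groups. Filled circles with bars are the change and its limma standard error, and open diamonds the change after a trend with transcript length was removed from each library: no gene changes side, and the diamonds of Bmp2k, Efnb2 and Gatad2a lie closest to 0.

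Among the partners of these pathways, 20 of 221 genes on 5 lists were in the table, 14 of them higher and 6 lower in KO, beside 52.5% and 47.4% of all listed genes. The table was selected on these libraries, so these counts and those per list are a description, and nothing about a pathway is read from them. All 3 listed Wnt partners were higher: Kremen2, a Dickkopf receptor, with a log2 change of 2.32 on 11 to 32 reads per WT library, Wls, which carries Wnt proteins to the cell surface, with 0.60, and Rnf43, a ubiquitin ligase that removes Frizzled receptors, with 0.50. Of 5 Notch partners 3 were higher and 2 lower. Aph1b, a gamma-secretase subunit, had a log2 change of 1.42 on 19 to 47 reads per WT library, Dtx3 of 1.11, Poglut1, which glycosylates Notch, of 0.56 and Dtx2 of -0.53. Nrarp, a feedback inhibitor of Notch whose gene is itself a Notch target, fell from 95.1, 103 and 103 RPM in WT to 77.4, 70.0 and 76.6 RPM in KO (log2 change -0.43, limma adjusted p = 0.00795). Nrarp lies outside the rule for named genes and was picked after its values were seen.

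Of 6 BMP and TGF-beta partners 4 were higher. Bambi, a decoy receptor for this family, had 5.67, 7.47 and 4.50 RPM in WT and 30.2, 29.2 and 24.6 RPM in KO (log2 change 2.26), and Nbl1, a BMP antagonist, had a log2 change of 1.38. The stress cytokine Gdf15 fell by 0.76 and the repressor Tgif2 by 0.45 on the log2 scale. The other 2 that were higher, Rgmb, a BMP co-receptor, and Tgif1, a repressor, had log2 changes of 0.39 and 0.34. Both lost their call in 5 of 6 leave-one-out fits, all but that without KO replicate 1, with limma adjusted p-values up to 0.110 for Rgmb and 0.0837 for Tgif1, which leaves 2 of the 4 calls. Rgmb also lost it with centred libraries (limma adjusted p = 0.0705) and with the replicate block (limma adjusted p = 0.0795). The 3 listed EGF family partners were ligands and were all higher: Egf with a log2 change of 1.32 on 19 to 37 reads per WT library, Ereg with 0.62 and Hbegf with 0.54. Of the 3 listed genes on the list of lineage factors, Tert, the telomerase subunit, had a log2 change of -0.64 and Creb3l3, a liver and gut factor of lipid metabolism, of -0.47. The call of Tert was lost without KO replicate 2, WT replicate 1 or WT replicate 2 (limma adjusted p = 0.0511, 0.0629 and 0.0730).

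The KO libraries were not alike. KO replicate 1 was the KO library farthest from WT in 14 of the 23 genes (60.9%), as in 61.4% of all listed genes, and KO replicate 3 the nearest in 15 (65.2%), as in 65.4%. In the 7 genes that fell KO replicate 1 was the farthest each time, against 73.1% of all listed genes that fell. The median coefficient of variation of the 23 was 13.9% in KO and 9.69% in WT, beside 13.4% and 8.34% over all listed genes. For the 7 that fell it was 15.3% in KO and 3.07% in WT, and for the 16 that rose 13.1% and 16.6%. Over all listed genes that fell it was 12.7% in KO and 6.00% in WT, and over all that rose 14.1% and 11.2%. Transcript length moved with direction: the 7 that fell had a median of 5.83 kb of merged exon and the 16 that rose 3.95 kb, and over the table the medians were 4.43 and 3.41 kb. With the length trend removed all 23 kept their direction. Besides Efnb2, the call was lost for Bmp2k, at a log2 change of -0.17, and Hoxb6, at 0.89, with limma adjusted p-values of 0.122 and 0.0652. The log2 change became -0.35 for Jag1, -0.25 for Gatad2a and 0.30 for Hnf1aos1, moved away from 0 to 0.80 for Foxp1, and these 4 still passed.

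**Figure D5:**
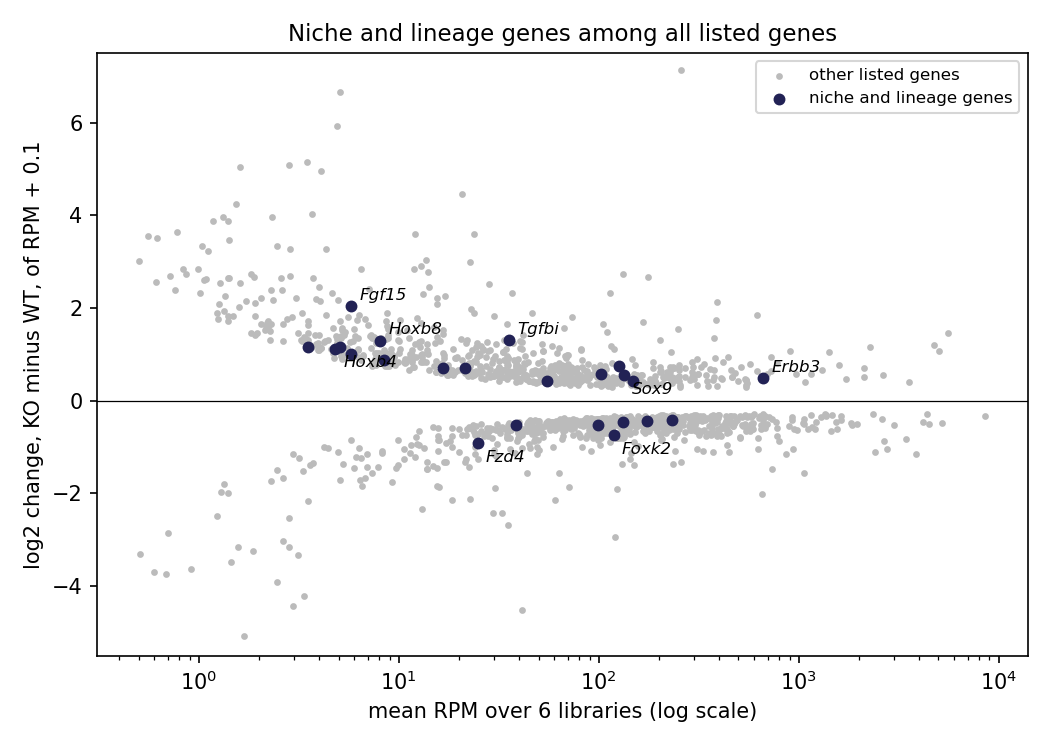
Log2 change of RPM + 0.1, KO minus WT (vertical axis), against mean RPM over 6 libraries (horizontal log axis) for all 1420 listed genes, grey, and the 23 genes, dark. Fgf15 and the Hoxb genes lie at low RPM and above 0, Erbb3 at the highest level of the 23, and the dark points run from -0.92 to 2.04 where the grey run from -5.07 to 7.13.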

How the data were processed

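Per the methods and processing notes, the authors trimmed 50 bp paired-end reads (Trim Galore 0.4.2), mapped them to GRCm38 (HISAT2 2.0.3), kept unique reads, counted them over exons of merged transcripts in SeqMonk and tested raw counts with DESeq2. The deposited table holds RPM, scaled by the authors to library depth, for called genes only. Its deposited corrected p-values were not used.

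Low values were whole multiples of a step per library (100% within 0.02 reads), taken as 1 read. Read numbers and depth come from this step. It was not established for all values, so no count test was run.

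Genes were tested with limma 3.58.1 (R 4.3.3) on log2(RPM + 0.1), which understates changes of low genes, with no covariate and a two-sided test, adjusted by Benjamini-Hochberg over all 1420 genes at 0.05. The fit was tested on simulated reads in which a minority of genes changed. The listed genes were preselected instead, so that test backs no call made here. The exact permutation test used scipy 1.17.1. Exon lengths come from GENCODE M21, matched by symbol and position (1396 genes, all 23 members).

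Members, roles and lists were chosen with earlier results of these data known. All library values are given for up to 6 members per pathway with the largest change and a mean of at least 1 RPM, and means or ranges for the others. Up to 4 genes per partner list are named by the same rule, and Nrarp, Rgmb and Tgif1 were added after their values were seen. A partner gene that the rule would name is not reported here. The filter alternative drops the lowest 25% of genes by mean RPM. Replicate pairs of a group all differed by more than sampling noise (chi-square per gene of 15.3 to 150).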

Additional observations from a re-analysis of the deposited data

How the results depend on the processing

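With the replicate number as a block, 23 of the 23 genes passed (16 higher, 7 lower), and the median log2 change was 0.57. With this block no call of the 23 was lost. Libraries with the same number deviated from their group means with correlations of -0.08, 0.09 and 0.06 over the listed genes. These genes were selected by a test on the same libraries, so the values cannot tell whether same-numbered libraries share a litter or a batch. The filter on mean RPM (18.5) removed 8 genes, all higher in KO, and left 15 that passed, 8 of them higher, 14 without overlap, a median of 0.43 and 7 partners called higher. At an adjusted p under 0.01, 13 genes passed, 2 of them lower, and 3 partners were called lower. The median was 0.48 with centred libraries, which shifted all genes by -0.09, 0.79 with the length trend removed, and between 0.55 and 0.66 when each library was left out in turn. There, between 19 and 23 of the 23 genes passed. Over 13 settings, the stricter threshold aside, 16 of 291 single-gene values lost the threshold, all of Bmp2k, Efnb2, Erbb3, Foxp1 or Hoxb6, and 0 changed direction. Of the partners, 22 of 273 values lost it. Smarcad1 was lower and passed in every setting run. The causes were not tested. The table was selected on these libraries, so the kept directions support nothing. Depth limits genes of few reads, such as the Hoxb genes, Fgf15, Kremen2, Egf and Aph1b.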
